A study of Mustela putorius furo and Mus musculus with 4 samples.

Results

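Early Eomes progenitors were the non-mitotic cells of the E18.0 mouse cortex in which Eomes was detected together with genes of the proneural step. Members were chosen by UMI counts alone: a cell was a member when it had 750 to 5000 detected genes, at least 2 Eomes unique molecular identifiers (UMIs, each counting 1 captured transcript), a UMI in at least 2 of the 5 genes Neurog1, Neurog2, Neurod4, Btbd17 and Gadd45g, and fewer than 3 of the 7 mitotic genes Mki67, Top2a, Cdk1, Birc5, Ube2c, Cenpf and Nusap1 detected. There were 2651 members among 18120 mouse cells (41602 cells with the ferret cells of the series, which were not analysed here), 1546 in control and 1105 in Smo-cKO. Control was littermate Smo F/F cortex, which the labels call wild type, and Smo-cKO was hGFAP-Cre;Smo F/F cortex, in which Cre driven by the human GFAP promoter acts in cortical radial glial (RG) cells; the labels give the CD1 strain for both. In both groups CellTrace Yellow, a fluorescent dye that enters cells lining the ventricle, was injected at E17.0 and labelled cells were sorted at E18.0, so the sort decides which cells could be members. Each genotype was 1 droplet library, and the number of embryos in it was not given in the sources used here. Genotype, embryos and preparation thus cannot be told apart, the genotypes were compared without a test, and every interval given is a 95% interval of counting error alone. The libraries were told apart by barcode suffix, the suffix with more barcodes being taken as control and the one with fewer as Smo-cKO because the study states the cell number of each; if that were wrong, every direction below would be reversed.

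Pyramidal neurons of the cortex arise largely through intermediate progenitors (PyN-IPCs), which descend from RG cells, switch on the T-box factor Eomes (Tbr2) and divide to give neurons. Neurog2 is a basic helix-loop-helix factor that starts this step, and Insm1, Neurod1 and later Neurod2, Neurod6 and Tbr1 follow it. Committed cells carry the Notch ligands Dll1 and Dll3, of which Dll1 keeps neighbouring cells in the RG state. They also carry Hes6, which counters the Notch effectors Hes1 and Hes5. Sonic hedgehog (SHH) acts through Smo, and Ptch1 and Gli1 are its usual transcriptional readouts.

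The label fitted genes that the rule did not use. At least 3 of the 9 genes Insm1, Sstr2, Pax6, Mfap4, Dll1, Dll3, Hes6, Mfng and Rnd2 were detected in 93.9% of control and 98.6% of Smo-cKO members, against 22.2% and 32.5% of RG cells and 18.3% and 7.19% of microglia. The neighbouring populations defined below were closer: dividing Eomes cells had 95.2% and 91.4%, late Eomes cells 81.3% and 90.4%, and newborn neurons 73.5% and 78.2%. The 9 genes thus mark the series from Eomes cells to young neurons and do not single out members. Markers of other lineages were scarce. At least 2 of 5 inhibitory markers were found in 17 control and 8 Smo-cKO members, at least 2 of 7 microglial markers in 4 and 6, and at least 2 of 4 oligodendrocyte markers in 6 and 0, with Sox10 at 0 in both libraries. A UMI of any of the 7 microglial markers was found in 2.01% of control and 5.34% of Smo-cKO members. Microglia themselves were 0.886% of control and 2.12% of Smo-cKO cells. RG markers were common: at least 3 of 6 were found in 31.2% of control and 44.7% of Smo-cKO members, and their summed level was 2156 and 3275 counts per 1000000 UMIs (CPM), against 22690 and 27187 CPM in RG cells. Members were deeper in Smo-cKO, with a median of 5973 UMIs per cell (4919 to 7772 from the first to the third quartile) against 4734 in control (3808 to 6236), so a gene of equal level is detected in a larger share of Smo-cKO members. Of 28 barcodes found in both libraries, 6 control and 4 Smo-cKO members carried one. The libraries also differed in sex transcripts. Xist had a UMI in 298 control members and in 1 Smo-cKO member, while a UMI of the Y-linked genes Ddx3y, Eif2s3y, Uty or Kdm5d without Xist was found in 732 control members (47.3%) and 744 Smo-cKO members (67.3%). The control library therefore held cells with either kind of transcript and 84 members with both (5.43%), and beside a list gene whose ratio no longer passed the mark used below among cells with a Y-linked UMI and no Xist UMI, its value there is given below.

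Early Eomes progenitors made up a similar part of both libraries. Of 10498 control cells 14.7% were members (14.1 to 15.4%), and of 7209 Smo-cKO cells 15.3% (14.5 to 16.2%). The shares differed by 0.60 percentage points (−0.47 to 1.68). After random thinning to 3000 UMIs per cell, which left out shallower cells (2213 control and 815 Smo-cKO), the shares were 10.5% and 9.71%. The difference averaged −0.79 points over 20 draws, and its interval lay wholly on the negative side in 6 of them. Leaving out the shallower cells without thinning gave 17.1% and 17.2%, a difference of 0.06 points (−1.17 to 1.29), so both the choice of cells and the thinning moved the difference. Cells with at least 2 Eomes UMIs were 32.6% of control and 27.8% of Smo-cKO cells, a difference of −4.82 points (−6.18 to −3.44). At 3000 UMIs they were 25.1% and 21.4%. Among these fewer Eomes cells, in contrast to the share of all cells, members were 45.1% (43.4 to 46.8%) in control and 55.1% (52.9 to 57.3%) in Smo-cKO. At 3000 UMIs members were 41.8% and 45.4% of them. The Eomes cells with at least 3 mitotic genes, called dividing below, were 4.58% of control cells and 1.29% of Smo-cKO cells. They were 14.0% of control and 4.64% of Smo-cKO cells with 2 Eomes UMIs, and 8.58% and 1.79% at 3000 UMIs. Late Eomes cells, which had at least 2 Eomes UMIs and none of the 5 proneural-step genes, were 6.06% (5.61 to 6.53%) and 4.74% (4.26 to 5.26%), and newborn neurons, which had no Eomes UMI and at least 2 Neurod1 UMIs, were 6.39% (5.93 to 6.88%) and 8.35% (7.72 to 9.01%).

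**Figure D1:**
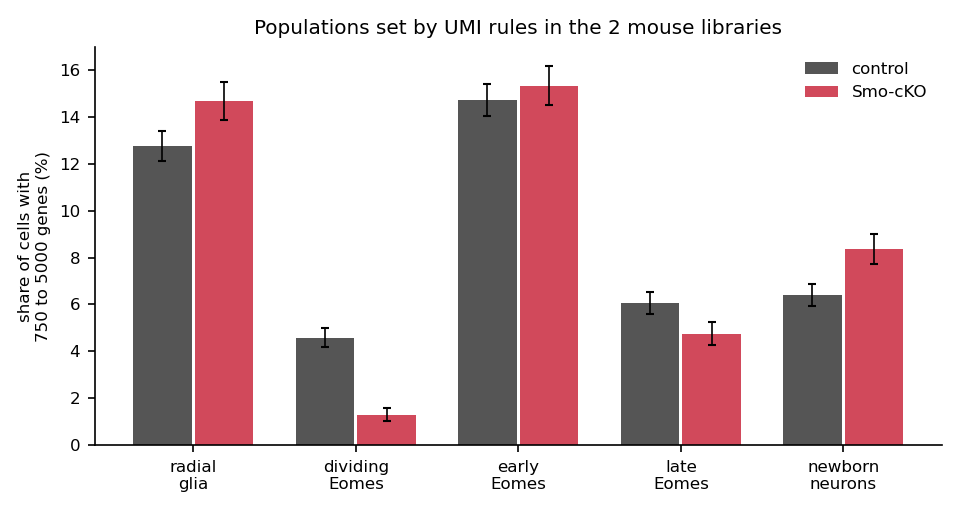
Share of cells with 750 to 5000 genes (y axis, percent, from 0) that fell into each of 5 populations set by UMI rules (x axis), in the control (grey) and Smo-cKO (red) libraries; bars are single libraries and error bars are exact 95% binomial intervals. Early Eomes cells were 14.7% and 15.3%, while dividing Eomes cells were 4.58% and 1.29%.

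The genes of the rule are given as a description. In control members Neurog2 stood at 616 CPM, Gadd45g, a growth arrest gene, at 465 CPM, Btbd17 at 291 CPM, Neurod4, a further helix-loop-helix factor, at 39.1 CPM and Neurog1 at 12.4 CPM. Smo-cKO members held 835 CPM of Neurog2, 550 CPM of Gadd45g, 305 CPM of Btbd17, 30.9 CPM of Neurod4 and 2.02 CPM of Neurog1. Eomes itself was at 869 and 866 CPM, with a median of 4 UMIs per control member and 5 per Smo-cKO member and a highest value of 32 and 28. Members mostly carried few of the 5 genes. In control 756 had exactly 2, 636 had 3, 144 had 4 and 10 had all 5, and in Smo-cKO these were 473, 553, 78 and 1. The commonest set was Neurog2, Btbd17 and Gadd45g, in 34.5% of control and 44.4% of Smo-cKO members, followed by Neurog2 with Btbd17 in 22.9% and 22.1%. Cells just inside and just outside the limit on Eomes had like levels of other cascade genes, while those outside the limit on the 5 genes had more Neurod1 and Neurod6. Control members with exactly 2 Eomes UMIs (358 cells) held 225 CPM of Insm1 and 174 CPM of Neurod1, and the 405 control cells kept out by having 1 Eomes UMI held 253 and 154 CPM. The 764 control cells with 1 of the 5 genes held 212 CPM of Insm1 but 339 CPM of Neurod1 and 732 CPM of Neurod6, against 212, 216 and 526 CPM in members with exactly 2 of the genes. Eomes lies in GRCm38 on chromosome 9 (118478212 to 118486132), Neurog2 on chromosome 3 (127633135 to 127635631), Btbd17 on chromosome 11 (114791217 to 114795945), Gadd45g on chromosome 13 (51846678 to 51848468), Neurod4 on chromosome 10 (130268152 to 130280240) and Neurog1 on chromosome 13 (56250478 to 56252163).

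Members lay between RG cells and late Eomes cells in the levels of Pax6, Sox2, Neurod1, Neurod6 and Sstr2, but not of every gene of the cascade. Pax6, which is shared by RG cells and PyN-IPCs, was at 323 CPM in control RG cells, 271 CPM in dividing Eomes cells, 246 CPM in members and 144 CPM in late Eomes cells. Sox2, an RG and progenitor factor, stood at 387, 212, 178 and 62.0 CPM in the same order. Neurod1 and Neurod6 ran the other way: control levels of Neurod1 were 3.66, 125, 179 and 387 CPM, and Neurod6 was at 385 CPM in dividing cells, 460 CPM in members and 894 CPM in late cells. The Smo-cKO library gave the same orders, with Neurod1 at 2.04, 58.7, 132 and 461 CPM, except that Pax6 was level at 242 CPM in dividing and early cells. In microglia, which are outside the lineage, Neurod1 was at 36.1 CPM in control and 6.37 CPM in Smo-cKO, so its transcripts outside the lineage were the more abundant in control. The somatostatin receptor gene Sstr2 was at 152.8, 244 and 311 CPM in dividing, early and late control cells. Hes6 and Dll3 were each highest in members in both libraries. Hes6 was at 334 CPM in dividing, 456 CPM in early and 230 CPM in late control cells, and Dll3 was at 26.8, 48.1 and 25.2 CPM, the intervals of early and of either neighbour not overlapping. Insm1, by comparison, was highest in dividing cells in both libraries (394 CPM in control and 474 in Smo-cKO) and lower in members (232 and 412 CPM). These populations were cut by Eomes, proneural and mitotic UMIs, so the orders are a description. RG cells were also chosen by a set of RG genes that includes Sox2 and without Neurod6. The place of RG cells in the order of Sox2 and of Neurod6 was thus set by the choice of cells.

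**Figure D2:**
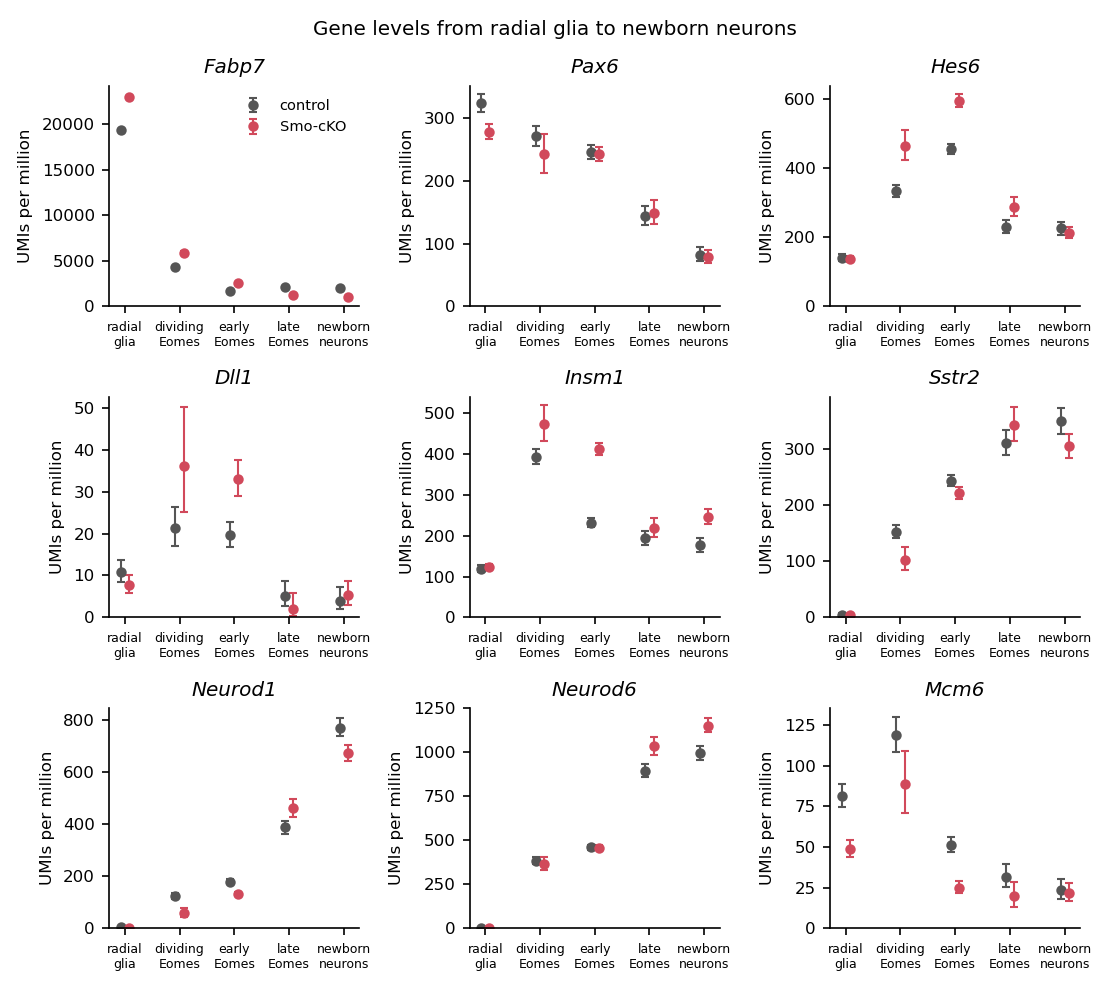
Levels of 9 genes (y axis, CPM, from 0) in RG cells, dividing, early and late Eomes cells and newborn neurons (x axis) of the control (grey) and Smo-cKO (red) libraries; points are sums over the cells of 1 library and error bars are exact 95% Poisson intervals. Insm1 in early cells was 232 CPM in control and 412 CPM in Smo-cKO, whereas the libraries lay together at 119 and 123 CPM in RG cells; RG cells were chosen without Neurod6 and newborn neurons with Neurod1.

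Against late Eomes cells, 188 of 9156 genes with at least 50 UMIs over early and late cells in each library were at least 2-fold higher in members in both libraries (2.05%) and 190 were at least 2-fold lower (2.08%), with the genes of the rule left out. Neurog2, Gadd45g, Btbd17 and Neurod4 headed the ranking because late cells were chosen without them. Among the other genes of the 10 highest, Dapk2, a death-associated protein kinase, stood at 16.9 CPM in control members and 0.388 CPM in late control cells, and at 26.3 and 0.660 CPM in Smo-cKO. Hrk, a pro-apoptotic BH3-only gene, was at 8.71 against 1.16 CPM in control and 13.4 against 1.32 CPM in Smo-cKO, and Nbl1, a secreted antagonist of bone morphogenetic proteins (BMPs), was at 13.4 against 1.55 CPM and 32.8 against 5.28 CPM. Late cells held few UMIs of these genes, 1 and 1 for Dapk2, 3 and 2 for Hrk and 4 and 8 for Nbl1. The haemoglobin genes Hba-a1, Hbb-bs and Hbb-bt also ranked here, but 1 control member held 1698 of 1716 Hba-a1 UMIs and 1 Smo-cKO member 2300 of 2980. The 10 lowest genes were Stac2, Rbfox1, Nos1, Glt28d2, Aff2, Myt1l, Fam84a, Lrrc6, Pcp4 and Slc44a5, which include the neuronal splicing factor Rbfox1 (4.27-fold lower than late cells in control and 4.40-fold lower in Smo-cKO), the neuronal zinc finger factor Myt1l (3.87-fold and 4.42-fold lower) and the calmodulin regulator Pcp4 (3.59-fold and 5.45-fold lower). Of the listed genes tested, 7 of 18 neuronal and 6 of 15 migration genes were 2-fold lower in both libraries and none was higher, and 5 of 20 RG genes were 2-fold higher and none lower.

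Against dividing Eomes cells 90 of 9210 genes were at least 2-fold higher in members in both libraries (0.977%) and 360 were at least 2-fold lower (3.91%). The 10 lowest were mitotic or chromosome genes or their like: Hmmr, Kif2c, Aurkb, Cdc25c, Casc5, Plk1, Mxd3, Birc5, Ndc80 and Esco2. Hmmr, a spindle gene, had 3 UMIs in control members and 500 in dividing cells, and 2 and 145 in Smo-cKO. Birc5 was used by the rule and the others are expressed together with its mitotic genes, so nothing is read from them. S phase genes were 2-fold lower in 16 of 19 tested. The rule did not name them, but cycling cells express them too, so this goes with the choice of cells and is a description. At least 5 of 20 S phase genes were detected in 79.2% of dividing and 16.8% of early control cells, and in 67.7% and 9.95% of Smo-cKO cells, against 6.92% and 4.09% of late cells and 3.87% and 3.32% of newborn neurons; these shares also depend on depth, which differed between the populations. Apart from the haemoglobin genes, the genes highest in members were Tcp11l2 (4.48-fold in control and 5.31-fold in Smo-cKO), Plch2, a phospholipase C (3.42-fold and 3.22-fold), Ptchd2, Dapk2, Fxyd2, 1600014C10Rik and Ass1, the argininosuccinate synthase (2.91-fold and 4.61-fold). Smo-cKO dividing cells were only 93, and held 4 Tcp11l2 and 7 Plch2 UMIs.

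The deleted gene and its readouts were almost absent from Smo-cKO members. Smo (chromosome 6, 29735503 to 29761365) had 62 UMIs in control members (7.29 CPM, a UMI in 4.01% of cells) and 3 in Smo-cKO members (0.405 CPM, 0.271% of cells), a ratio of Smo-cKO over control of 0.0555 (0.0111 to 0.170). Ptch1 (chromosome 13, 63508328 to 63573598) had 78 UMIs (9.18 CPM) against 1 (0.135 CPM). Gli1 (chromosome 10, 127329882 to 127341974) had 11 against 1, too few to place it. Over these 3 genes together the ratio was 0.0380. Whether the counted ends of Smo transcripts lie in the deleted part is not given in the sources used here, so its count is no direct check of the deletion. Control members had less of these transcripts than control RG cells, which held 16.1 CPM of Smo, 23.9 CPM of Ptch1 and 5.73 CPM of Gli1. In control microglia, which served as a type outside the lineage, Smo had a UMI in 0 of 93 cells and Ptch1 in 6.45%, so single UMIs of Ptch1 also occurred outside the lineage. Of the SHH pathway list, 9 of 12 genes had at least 50 UMIs over both libraries; the co-receptor genes Boc (10.0 and 15.5 CPM, ratio 1.55, 1.16 to 2.08) and Gas1 (58.8 and 93.9 CPM, ratio 1.60, 1.42 to 1.79) were higher in Smo-cKO, Gas1 narrowly below the mark as a mean over cells (log2 ratio 0.57), and Gli2, Gli3, Cdon, Sufu and Gpr161 lay within 1.5-fold. Prm1, a sperm chromatin gene, had the highest ratio of all genes tested. It had no UMI in control members and 669 UMIs in 254 Smo-cKO members (90.3 CPM, 23.0% of cells, 14.1% at 3000 UMIs), and in Smo-cKO was at 749 CPM in RG cells, 41.6 CPM in late Eomes cells and 16.2 CPM in microglia, 8.50% of which had a UMI (2.83% at 3000 UMIs). Against a floor of 3 UMIs in control the ratio was 256, with a lower limit of 207.

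Over all 10375 genes with at least 50 UMIs in the members of both libraries together, 605 (5.83%) were at least 1.5-fold higher in Smo-cKO and 331 (3.19%) at least 1.5-fold lower, 936 in all (9.02%), and the median log2 ratio was 0.04. Below, higher and lower mean past this 1.5-fold mark. Of these 936 genes, 909 stayed past it in the same direction when the cell with the most UMIs of the gene was left out of each library. Of the 66 list genes past the mark, 24 were no longer past it in at least 1 of the alternatives run, and values for these are given below.

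In the Eomes cascade, of 21 genes tested, 1 was higher and 2 were lower, a share close to that over all genes, and the median log2 ratio was −0.09. Insm1 (chromosome 2, 146221921 to 146225020), a zinc finger factor that promotes the delamination and neurogenic division of progenitors, was at 232 CPM in control members, in 62.0% of cells, and at 412 CPM in Smo-cKO members, in 82.0% of cells, so that the Smo-cKO level was 1.78 times the control level (1.68 to 1.88). After thinning the shares of cells were 46.0% and 62.4%. The Insm1 ratio was 1.04 (0.940 to 1.14) in RG cells, 1.20 (1.08 to 1.34) in dividing Eomes cells and 1.13 (0.981 to 1.30) in late Eomes cells, all below that in members and with intervals that did not reach it. The difference was not particular to members, however. Cells kept out by having 1 Eomes UMI held 253 CPM of Insm1 in control and 422 CPM in Smo-cKO. Those kept out by having 1 of the 5 genes held 212 and 249 CPM. Nhlh1, a helix-loop-helix factor of young neurons, was lower (37.2 and 21.2 CPM, ratio 0.570, 0.468 to 0.692), as was Tac2, a tachykinin gene (16.1 and 2.16 CPM, ratio 0.134, 0.0745 to 0.225), although Tac2 was found in 2.91% of control members only. Neurod1 stood at 179 and 132 CPM, a ratio of 0.737 (0.679 to 0.799) that did not reach the mark, and its ratio in late Eomes cells was 1.19 (1.08 to 1.31). The part in this ratio of the Neurod1 transcripts found in microglia was not tested. Pax6 (246 and 242 CPM) and Neurod6 (460 and 458 CPM) were level. Pax6 had a UMI in 63.6% of control and 71.4% of Smo-cKO members, but in 48.0% and 48.3% at 3000 UMIs per cell, so the difference in detection was not seen at equal depth. Neurog1, which the rule used, had 105 UMIs in 80 control members and 15 in 13 Smo-cKO members; this is given as a description.

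Of 18 Notch genes tested, 4 were higher and none lower, beside 5.83% and 3.19% of all genes. Dll1 (chromosome 17, 15367354 to 15376872), the Notch ligand, was at 19.5 CPM in 9.51% of control members and at 33.1 CPM in 16.7% of Smo-cKO members, a ratio of 1.69 (1.38 to 2.07). The ratio was also 1.69 (1.10 to 2.52) in dividing Eomes cells and was 0.716 (0.494 to 1.03) in RG cells. Jag1, a ligand of the Jagged class (9.76 and 14.8 CPM), the receptor gene Notch3 (4.47 and 8.63 CPM) and the effector Hey1 (6.82 and 11.3 CPM) were the other higher genes. Jag1 stood at 0.34 on the log2 scale at 3000 UMIs per cell and below the mark in 6 alternatives, and Notch3 at 0.53 as a mean over cells, so both calls depended on the processing. Dll3 had a ratio of 1.16 (1.01 to 1.33) and Hes6 of 1.31 (1.25 to 1.37), and the effectors Hes5 and Hes1 had ratios of 0.865 and 0.716.

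Genes of the G1 phase differed in both directions. Cdk6 (chromosome 5, 3341485 to 3531008), a G1 kinase, was at 204 CPM in 56.7% of control members and at 44.3 CPM in 20.9% of Smo-cKO members, a ratio of 0.217 (0.193 to 0.245). Its partner cyclin Ccnd1 (chromosome 7, 144929931 to 144939925) was at 38.7 and 9.04 CPM, a ratio of 0.234 (0.177 to 0.305). The other G1 kinase and D cyclins of the list lay within the mark. Cdk4 had 7878 and 6771 UMIs (ratio 0.986), Ccnd2 4978 and 3340 (0.769) and Ccnd3 183 and 222 (1.39). Cdk4 and Ccnd2 were thus more abundant in control members than Cdk6 (1730 UMIs) and Ccnd1 (329 UMIs). The Cdk6 ratio was closer to 1 in RG cells (0.371, 0.318 to 0.431) and dividing cells (0.345, 0.269 to 0.438), the intervals not overlapping that of members, and was 0.249 (0.191 to 0.321) in late cells. A pair of inhibitor genes was higher. Cdkn1a (p21; chromosome 17, 29090976 to 29100727) was at 3.88 CPM in 22 control members and at 34.9 CPM in 86 Smo-cKO members, a ratio of 9.00 (6.25 to 13.4), and Cdkn1c (p57) was at 50.2 and 193 CPM, a ratio of 3.84 (3.44 to 4.28). Btg1, an antiproliferative gene (ratio 1.60), and Ccng1, a p53 target (ratio 2.14), were also higher, Rbl1 was lower (ratio 0.584), and Mdm2 and Trp53 lay within the mark at 0.920 and 1.25, as did Cdkn1b (1.16), Cdkn2c (1.22), Cdkn2d (1.10), Rb1 (1.25) and Btg2 (0.834). Rbl1 stood at −0.40 on the log2 scale in members with at least 3 of the 5 genes, within the mark. Of 17 genes tested 4 were higher and 3 lower, beside 5.83% and 3.19% of all genes. Cdkn1a was also higher in Smo-cKO RG cells (ratio 6.27, 5.19 to 7.64) and in microglia (2.42, 1.96 to 3.01), and its ratio in dividing Eomes cells was 0.952 (0.427 to 1.92). Of 19 S phase genes tested 13 were lower, beside 3.19% of all genes, and none was higher. Their median log2 ratio was −0.81 beside 0.04 over all genes tested. In members with at least 3 of the 5 genes 9 of these 13 were still lower, and Pcna (−0.38), Rrm2 (−0.39), Gins2 (−0.47) and Chaf1b (−0.48) lay within the mark on the log2 scale. Pcna was also within it, at −0.57, among cells with a Y-linked UMI and no Xist UMI. The replication licensing genes Mcm3 (20.6 and 7.96 CPM, ratio 0.387) and Mcm6 (51.4 and 25.1 CPM, ratio 0.488) and the methylation maintenance gene Uhrf1 (13.4 and 4.32 CPM, ratio 0.322) were among them, with Mcm2, Mcm5, Pcna, Gins2, Ung, Rrm2, Hells, Dut, Cdc45 and Chaf1b.

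**Figure D3:**
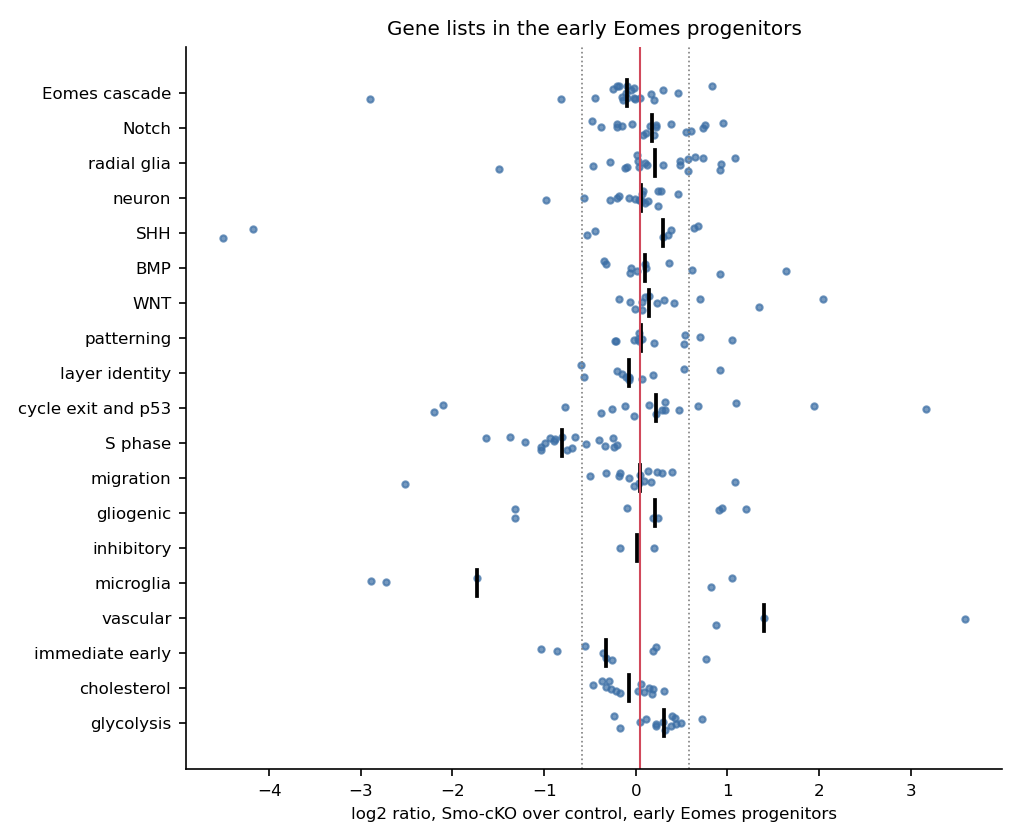
Log2 ratio of CPM, Smo-cKO over control, in early Eomes progenitors (x axis) for the genes of 19 lists (y axis) with at least 50 UMIs; points are genes, black bars list medians, the red line the median of all genes tested (0.04) and dotted lines the 1.5-fold mark. The S phase list lies to the left with a median of −0.81; the microglial and vascular lists rest on few genes and few cells.

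RG genes were partly higher in Smo-cKO members. Of 20 tested, 5 were higher and 1 lower, beside 5.83% and 3.19% of all genes. Fabp7, a brain lipid-binding protein, stood at 1638 and 2558 CPM (ratio 1.56, 1.53 to 1.60), Aldoc, an astroglial aldolase, at 105 and 221 CPM (ratio 2.11), Hopx, a homeodomain-only gene of outer RG cells, at 120 and 227 CPM (ratio 1.90, 1.75 to 2.05), Mfge8 at 138 and 263 CPM and Tnc at 46.2 and 76.6 CPM. Fgfbp3 was lower (58.5 and 20.8 CPM, ratio 0.355, 0.295 to 0.427), and Sox2 (178 and 179 CPM), Sox9, Slc1a3 and Ptprz1 were level to within 1.1-fold. Fabp7 was also found in 47.3% of control and 57.5% of Smo-cKO microglia, with a level of 246 CPM in the latter, so its transcripts occurred outside the lineage and differed there between the libraries; the part of this in the members' ratio was not tested. The Fabp7 ratio depended on the cells used and ranged from 0.45 to 0.93 on the log2 scale over 12 alternatives, falling below the mark without the 5% of cells with most UMIs (0.45), at 3000 UMIs (0.51) and as a mean over cells (0.54). Tnc fell below it without the 5% of cells with most UMIs (0.53), with no mitotic gene detected (0.55) and, narrowly, at 3000 UMIs (0.58). Hopx was at 50.5 CPM in control and 184 CPM in Smo-cKO microglia, a larger ratio than in members, and the part of this in the members' ratio was not tested.

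Of 11 BMP genes tested 3 were higher, beside 5.83% of all genes, and the WNT and patterning lists also held higher genes. No gene of these lists was lower, which in lists of this size is near the 3.19% over all genes. Id3 (chromosome 4, 136143497 to 136145755), a BMP target that blocks helix-loop-helix factors, was at 14.9 CPM in 3.10% of control members and at 46.4 CPM in 8.33% of Smo-cKO members, a ratio of 3.11 (2.53 to 3.84), and its ratio in RG cells was 3.21 (2.99 to 3.45). In microglia Id3 had a UMI in 4.30% of control and 21.6% of Smo-cKO cells, at 4.12 and 41.1 CPM. The control microglial level rested on few UMIs, so whether transcripts outside the lineage differed more than those of members cannot be told. Their part in the members' ratio was not tested. At 3000 UMIs per cell Id3 was found in 1.90% and 4.65% of members and in 2.46% and 2.04% of late Eomes cells. Id2 (278 and 427 CPM) was also higher, narrowly below the mark without mitochondrial and ribosomal protein genes (0.58), as was Hopx, which is on the BMP list too, while Id1 (ratio 0.788) and Id4 (1.29) lay within the mark. Bmp7, the ligand, had 9 and 31 UMIs, under the limit of 50, and a ratio of 3.95 (1.84 to 9.43). Of the 13 WNT genes tested 3 were higher: the nuclear effector Lef1 (12 and 43 UMIs, ratio 4.11, 2.13 to 8.56), and the feedback genes Nkd1 (9.65 and 24.4 CPM, ratio 2.53, 1.94 to 3.33) and Axin2 (8.71 and 14.2 CPM, ratio 1.63, 1.20 to 2.22). Axin2 fell below the mark, to a log2 ratio of 0.47 among cells with a Y-linked UMI and no Xist UMI and of 0.55 with at least 3 of the 5 genes. Nkd1 had a ratio of 1.04 (0.635 to 1.72) in RG cells. Of 12 patterning genes, Emx2, a medial and caudal cortical factor (48.0 and 77.8 CPM, ratio 1.62, 1.43 to 1.85), and Nr2f2, a caudal and ventral factor (8.59 and 17.8 CPM, ratio 2.07), were higher, and Lhx2 was level (468 and 479 CPM). The log2 ratio of Emx2 was 0.53 among cells with a Y-linked UMI and no Xist UMI, below the mark of 0.58. Of 12 genes of layer identity, the deep layer gene Tle4 was higher (31.9 and 60.4 CPM, ratio 1.90) and the upper layer gene Cux2 lower (28.0 and 18.5 CPM, ratio 0.660). These counts are near the shares over all genes. Cux2 was at −0.24 on the log2 scale at 3000 UMIs per cell, at −0.55 among cells with a Y-linked UMI and no Xist UMI and within the mark in 6 alternatives, so its call did not hold at equal depth.

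Neuronal, migration and gliogenic lists were mixed, and the neuronal and migration counts were near the shares over all genes. Of 18 neuronal genes only Stmn2 passed the mark (32.4 and 16.5 CPM, ratio 0.509), and it lay within it without the 5% of cells with most UMIs (log2 ratio −0.25), as a mean over cells (−0.37) and with no mitotic gene detected (−0.47). Of 16 migration genes Robo1, a Slit receptor, was higher (14.5 and 30.6 CPM, ratio 2.12, 1.69 to 2.66). Reln was lower at 46 and 7 UMIs, but 43 of the 46 came from 1 control cell and its ratio without the top cells was 2.29. Of 8 gliogenic genes tested, Egfr (12.8 and 5.13 CPM, ratio 0.400, 0.269 to 0.583) and Olig2 (7.76 and 3.10 CPM, ratio 0.400, 0.237 to 0.651), which mark glial and olfactory bulb progenitors, were lower (Olig2 at −0.56 on the log2 scale, within the mark, with at least 3 of the 5 genes), and the astrocyte genes Gfap (23.2 and 43.4 CPM) and Aqp4 (7.06 and 16.2 CPM) were higher. Immediate early genes, which dissociation induces, went partly with genotype: Egr1 (265 and 130 CPM, ratio 0.489) and Ier2 (131.5 and 72.6 CPM, ratio 0.552) were lower, Junb was higher (12.2 and 20.8 CPM; log2 ratio 0.31 at 3000 UMIs per cell, within the mark), and the other 6 genes tested lay within the mark. Egr1 was also lower in microglia (336 and 164 CPM). The part of dissociation in the other ratios was not tested. Of 14 glycolytic genes Eno1 was higher (269 and 443 CPM, ratio 1.64), and all 14 cholesterol synthesis genes tested lay within the mark. Both tested genes of the inhibitory list, Dlx1 and Sp8, lay within the mark.

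Among genes with at least 100 UMIs the 12 highest ratios, apart from that of Igfbp7, fell into those spread over many members and those of single cells. Beside Prm1 and Cdkn1a, Nrip3 (ratio 9.07, 20 control and 95 Smo-cKO members with a UMI), the thyroid hormone deiodinase Dio2 (7.58, 16 and 91 members), the chromatin remodeller Chd5 (7.56, 38 and 183 members), the immunoproteasome subunit Psmb8 (7.22, 21 and 92 members) and Prrt1 (6.34, 17 and 79 members) were spread. Chd5 was also higher in Smo-cKO RG cells (9.76, 5.85 to 17.4). S100a9, S100a8 and BC100530, which neutrophils express, had no control UMI, and 1 Smo-cKO member held 332 of 336, 253 of 258 and 213 of 214 of their UMIs. Wfdc17 (95 of 117 UMIs in 1 cell) was of the same kind. Igfbp7 had 56 of its 111 Smo-cKO UMIs in 1 cell, but it was found in 12 control and 27 Smo-cKO members. Its ratio without the top cells was 4.85. The microglial genes C1qa, C1qb and C1qc were lower and Tyrobp and Fcer1g higher, with 62 of 85 C1qa UMIs in 1 control member. Among cells with a Y-linked UMI and no Xist UMI the log2 ratio of C1qa was −0.12 and that of Fcer1g 4.87. The vascular gene Col1a1 was higher, with 44 of 63 UMIs in 1 Smo-cKO member. Pdgfrb and Col4a1 were also higher, with ratios of 1.83 and 2.63, and Col4a1 fell to 1.91 without its top cells. On the log2 scale Col4a1 was at 0.29 without cells with markers of other types and Pdgfrb at 0.15 at 3000 UMIs, both within the mark. Of the 12 lowest, Xist went with the sex transcripts given above. Hpca, a neuronal calcium sensor (21.5 and 2.16 CPM, ratio 0.100, 0.0561 to 0.167), Nell2, a secreted neuronal protein (24.9 and 3.37 CPM, ratio 0.135), Cntnap2, a neuronal adhesion gene (56.2 and 17.5 CPM, ratio 0.312), Dpysl4 (ratio 0.263), Bok (0.287) and Sparcl1 (0.112) were spread over 97 or more control members each. Hpca, Nell2 and Cdk6 kept ratios below 0.25 among cells with a Y-linked UMI and no Xist UMI, at −3.47, −3.09 and −2.18 on the log2 scale.

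**Figure D4:**
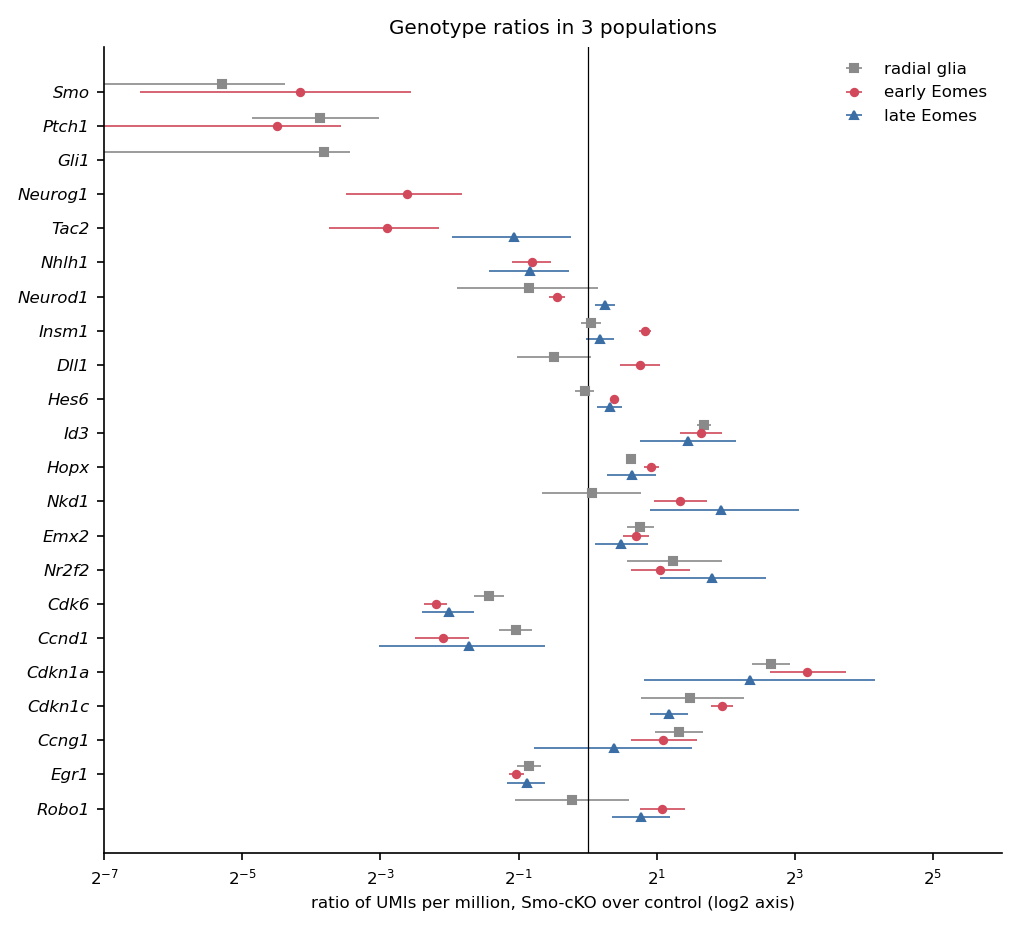
Ratio of CPM, Smo-cKO over control (x axis, log2 axis), of 22 genes (y axis) in RG cells (grey squares), early Eomes (red circles) and late Eomes cells (blue triangles), with exact conditional 95% intervals of counting error; points with under 20 UMIs over both libraries are left out, library sums under 3 UMIs were set to 3, and intervals are cut at the axis. Insm1 stood at 1.78 in early cells against 1.04 in RG and 1.13 in late cells, and Cdk6 at 0.217 against 0.371 and 0.249.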

How the data were processed

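The authors sequenced droplet libraries, processed reads with Cell Ranger (version not given in the sources used here) and deposited raw UMI counts for each gene in each cell; the submitters' notes also name mm10, Seurat 3 and StringTie, without a role for each. The members, gene lists, tests and alternatives were chosen with earlier results of these data known. Cells with 750 to 5000 detected genes were kept, leaving 51657121 UMIs in control and 42057782 in Smo-cKO, of which members held 8500135 and 7412141. UMIs were summed over the cells of a population and given as CPM with exact Poisson intervals, ratios with exact conditional binomial intervals, shares with exact Clopper-Pearson intervals and their differences with Newcombe intervals, all at 95% (scipy 1.17.1 with numpy 2.4.6, pandas 2.3.3, python 3.11.15). A sum under 3 UMIs was set to 3 for a ratio. RG, late and newborn cells had fewer than 3 mitotic genes; RG cells had no Eomes, Neurod6 or Dlx2 UMI and at least 4 of 8 RG genes detected; microglia had at least 4 of 7 microglial genes. No doublets were removed here, and no cell annotation was used here. The ratio calculation was tested on simulated data. Genes named were the rule's genes, Smo, Ptch1 and Gli1, list members past 1.5-fold and 20 listed genes whatever their value, the 12 highest and lowest genotype ratios (at least 100 UMIs), and the 10 highest and lowest ratios over late and over dividing Eomes cells; 1 gene named by this rule is not reported here, and genes given as lying within 1.5-fold were named from the lists after their values were seen. Coordinates are those of GENCODE vM21. Alternatives changed the rule, the depth, the scaling and the cells used.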

Additional observations from a re-analysis of the deposited data

Results flagged for a closer look

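Some genes stood on opposite sides of the 1.5-fold mark in early Eomes progenitors and in another population of the same libraries; with 1 library per genotype these differences were not tested. Against RG cells, Gas1 had a log2 ratio of Smo-cKO over control of 0.67 in early progenitors and −0.76 in RG cells, and Ass1 of −0.61 and 1.71. The Ass1 difference rested on 431 and 246 UMIs in early progenitors and 84 and 322 in RG cells. Against late Eomes cells, Gas1 stood at 0.67 and −1.34, Fabp7 at 0.64 and −0.78, and Mfge8 at 0.93 and −0.63. These last 3 genes had their highest level in RG cells in both libraries (Gas1 at 336 and 198 CPM).

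The remaining genes of this kind had many of their UMIs in few cells. Hba-a1 stood at 0.99 in early progenitors and −1.45 in RG cells, Hbb-bs at 1.27 and −1.13, Hbb-bt at 0.66 and −0.92, and Col1a1 at 3.59 and −1.04. Fcer1g stood at 1.05 in early progenitors and −4.49 in late Eomes cells; its top members held 43 of 90 control and 46 of 162 Smo-cKO UMIs, and its ratio without them was 2.83. Without their top cells the ratios of Hba-a1 and Hbb-bs were 43.3 and 34.4. At least 5 haemoglobin UMIs were found in 1 control and 2 Smo-cKO members. In 27 genes 1 member held more than 50% of the gene's UMIs in a library.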

How the results depend on the processing

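No paired analysis was possible because each genotype was 1 library. The number of genes past 1.5-fold moved with the UMI minimum, to 977 higher and 564 lower at 20 UMIs and to 378 higher and 177 lower at 100 UMIs, since fewer or more genes were tested. At 3000 UMIs per cell the difference in member share was −0.79 points, the share of members with a Pax6 UMI was 48.0% in control and 48.3% in Smo-cKO, and the genes 2-fold higher than late, higher than dividing and lower than dividing Eomes cells numbered 120, 57 and 176; thinning leaves fewer genes over the minimum. With late cells allowed 1 of the 5 genes, 101 genes were 2-fold higher. Alternatives chosen after the data were seen left out shallow cells, cells with markers of other types, shared barcodes or each gene's top cell, or kept cells with a Y-linked UMI and no Xist UMI; the last gave a share difference of 2.14 points, and the chance of seeing such a UMI depends on depth. Of the named genes past the mark, 4 changed sign. On the log2 scale C1qb became 0.59 with at least 3 of the 5 genes, 0.42 without the deepest 5% of cells, 1.21 among Y-linked cells and 0.64 without cells with other markers. C1qc became 0.91, 0.36 and 0.92 under the last 3 of these, Col1a1 −0.55 without cells with other markers, and Reln 0.84 with no mitotic gene detected, 1.40 without the deepest 5% and 1.20 without its top cell. Of genes within the mark, Hes5 went from −0.21 to 0.19 among Y-linked cells, and Sox2, Pax6 and Lhx2, all near 0, also changed sign. The direction of Insm1, Dll1, Cdk6, Ccnd1, Cdkn1a, Id3, Nkd1, Robo1 and Egr1 was the same in all 12 alternatives run for each, from 0.79 to 0.95 for Insm1 and from −2.24 to −2.12 for Cdk6. Counting error covers only UMI sampling, and embryo-to-embryo spread could not be measured.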

Other observations

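The following genes were on no list and were chosen after their values were seen, so they stand for no group. B2m, the light chain of MHC class I, was at 66.5 CPM in 306 control members and at 262 CPM in 576 Smo-cKO members, a ratio of 3.94 (3.58 to 4.33). The class I heavy chain genes H2-K1 (54.4 and 215 CPM, ratio 3.95, 3.56 to 4.39) and H2-D1 (72.6 and 236 CPM, ratio 3.25, 2.96 to 3.57) were higher too. H2-Q4 had 43 UMIs in 42 control members and 192 in 121 Smo-cKO members. The part of microglial transcripts in these ratios was not tested.

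Further genes with spread-out differences were Klf9, a hormone-responsive zinc finger gene (8.35 and 40.2 CPM, 67 and 221 members), and Etv5, an ETS factor downstream of fibroblast growth factor (4.47 and 24.8 CPM, 33 and 136 members). Phlda3, a p53 target, was at 3.06 CPM in 26 control members and at 16.2 CPM in 85 Smo-cKO members. Among the lower genes, Pcp4 was at 433 CPM in 680 control members and 149 CPM in 259 Smo-cKO members, and Nkain4 at 143 and 48.3 CPM.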
